A study of Drosophila melanogaster with 10 samples.

Results

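The comparison set irradiated embryos of the p53 mutant strain Dmp53NS against irradiated wild-type (WT) embryos of Drosophila melanogaster. Its members were chosen by the array titles, 2 arrays of irradiated Dmp53NS and 3 arrays of irradiated WT, which makes 5 of the 10 arrays of the series. All 13966 probe sets that were not Affymetrix controls entered, and 8379 of them, for 6848 genes, were bright enough to be tested. The WT arrays came from 2 strains, yw (1 array) and w1118 (2 arrays). Every group was a pool of whole embryos gathered in a window of 0 to 2.5 h, kept for a further 2.5 h at 25C and then exposed to 40 Gy of gamma rays, with RNA taken after a recovery of 1.5 h. The same collections without radiation, 2 of Dmp53NS and 3 of WT, served to find the differences that were there without it. Dmp53NS and the WT strains may differ at loci other than p53, and the labels give no WT strain of matched background, so the p53 mutation and the rest of each genome cannot be told apart here. In pools of whole embryos, fewer cells of a type and less RNA per cell cannot be told apart either.

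The p53 protein is a transcription factor that is activated by DNA breaks. In the fly embryo it is known for switching on cell death genes of the reaper region, whose products block the inhibitor of apoptosis proteins that hold caspases in check, together with genes that join and process broken DNA ends. The study, by its title, looked for radiation-induced expression that depends on this factor.

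The values are signal intensities in arbitrary units, tested with limma on log2(signal + 14.6), so differences of dim probe sets are understated. Median signal per array was 63.3 to 108. As a sign of RNA quality, eIF-4a probe sets gave a 3′ to 5′ ratio of 5.92 for the second unirradiated Dmp53NS array and 12.2 for the second irradiated w1118 array, beside 1.56 to 3.13 for the other 8. The yw set was hybridized on a day of its own, while the first sets of Dmp53NS and w1118 shared day 2 and their second sets shared day 3. The number of arrays limits the precision of each value.

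In irradiated embryos 152 probe sets were higher and 68 lower in Dmp53NS than in WT at a Benjamini-Hochberg adjusted p under 0.05, 220 in all. These were 2.63% of the probe sets tested, with 1.81% called higher and 0.812% called lower. The median difference (Dmp53NS minus WT) of the higher ones was 2.04 log2 and that of the lower ones -1.68 log2, against -0.115 log2 over all probe sets. At an unadjusted p under 0.05 there were 1707, where 419 would be expected by chance. The 2 mutant arrays lay wholly above or below the 3 WT arrays for 215 of the 220, and for 2721 probe sets, or 32.5%, over all tested. With the hybridization day held as a replicate block, 1146 probe sets passed, among them 216 of the 220. That fit does not make the same comparison, since yw had no mutant array on its day. It also took the control and irradiated arrays of a set as independent, unlike the main fit. Its genotype difference without radiation comes from Dmp53NS against w1118, and yw enters only through the irradiation effect in WT. Under that block 7.32% of the probe sets tested were higher and 6.36% lower, the background for each count with the block below. Without the yw set 30 passed, without the second irradiated w1118 array 34, and without the second Dmp53NS set 0 (925 at an unadjusted p under 0.05).

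Most of these differences were also present without radiation. Between the unirradiated arrays 327 probe sets passed (3.9%), and 140 of the 220, or 63.6%, were among them with the same sign, 116 higher and 24 lower. They were 42.8% of the control calls. A further 58 (35 higher, 23 lower) did not pass between control arrays but had a difference of the same sign and at least 50% of the size there. The remaining 22 had a control difference that was smaller than that or of opposite sign, and 21 of these 22 were lower in Dmp53NS. The direct test of a difference that exists mainly with radiation is the irradiation effect in Dmp53NS minus that in WT. In limma it called 1 probe set, or 0.0119%, and 282 (3.37%) had an unadjusted p under 0.05, fewer than the 419 expected by chance. Of the 282, 16 were among the 22, 2 among the 58 and 0 among the 140. The classes were formed on the same arrays, so this split is partly set by their definition. A missed threshold does not show that the other genes differed equally with and without radiation.

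**Figure D1:**
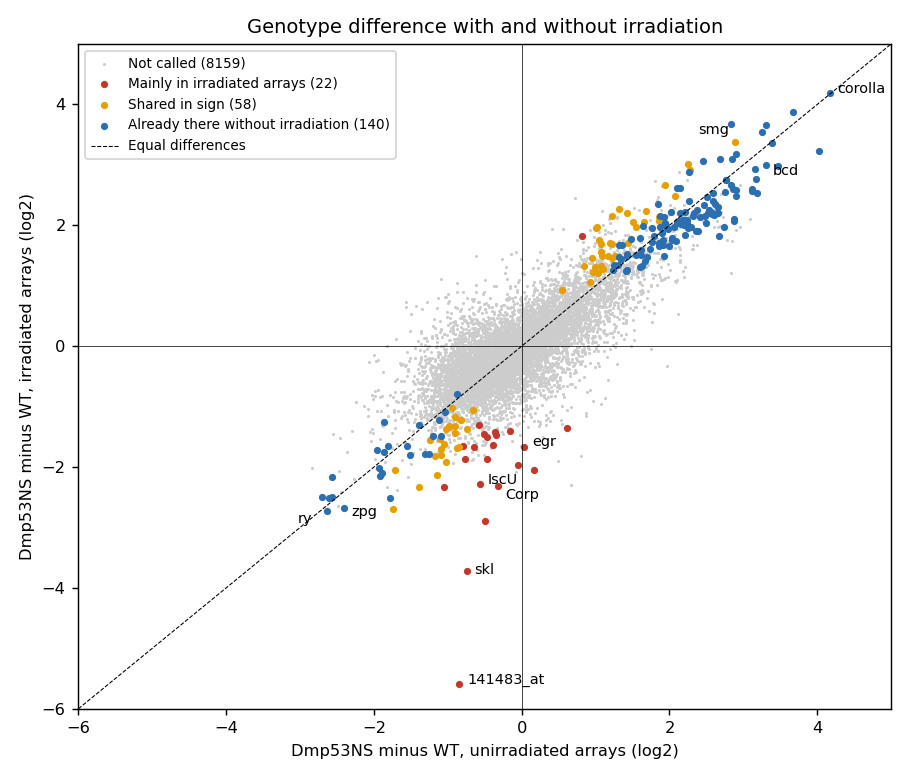
Difference between Dmp53NS and WT (log2) in irradiated arrays (vertical axis) against unirradiated arrays (horizontal axis) for 8379 probe sets, one point each, with the 220 calls coloured by class. The 140 calls that were already there lie near the dashed line of equal differences, and the 22 found mainly in irradiated arrays lie below it except for 1.

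The genes that were lower mainly in irradiated mutants included some, but not most, of the cell death genes tested. The gene skl (sickle, 148994_at), which encodes an antagonist of the inhibitor of apoptosis proteins, had signals of 90.4 and 11.1 in irradiated Dmp53NS, against 1196.1 in yw and 926.1 and 265.2 in w1118. Both mutant arrays were below every WT array, although the second w1118 array was far below the other 2 WT arrays. The difference was -3.72 log2 (SE 0.83, limma adjusted p = 0.0457). Without radiation skl read 73 and 10 in Dmp53NS and 25, 101 and 88.3 in WT, groups that overlapped. The irradiation effect in Dmp53NS minus that in WT was -2.97 log2 (adjusted p = 0.359), which did not pass.

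Corp (153035_at), whose product restrains p53 in a feedback loop, had signals of 401.6 and 391.8 in irradiated Dmp53NS, against 2249.2, 2226.2 and 1696.5 in irradiated WT. The groups were far apart and each was tight. The difference was -2.32 log2 (SE 0.30, adjusted p = 0.0120), a signal 5.00-fold higher in WT. Control arrays read 307.4 and 467.5 in Dmp53NS and 422.2, 447.5 and 582.2 in WT, and the difference between the irradiation effects was -1.995 log2 (adjusted p = 0.0836). The fly tumour necrosis factor gene egr (eiger, 146921_at) had 119.4 and 107.4 in irradiated Dmp53NS and 331.5, 466 and 395.3 in irradiated WT. Its difference was -1.68 log2 (SE 0.36, adjusted p = 0.0429), with a control difference of 0.04 log2. Leaving out any 1 set kept the difference between -1.56 and -1.80 log2 but ended the call for egr each time, whereas Corp passed with each set left out in turn except the second Dmp53NS set. The call for skl also ended without yw (-3.30 log2, adjusted p = 0.120) and without either Dmp53NS set.

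The DNA end-processing nuclease gene mre11 (153629_at) read 268.3 and 267.7 in irradiated Dmp53NS, against 792.5, 732 and 669.2 in irradiated WT. All 3 WT arrays stood well above both mutant arrays, and the difference was -1.40 log2 (SE 0.31, adjusted p = 0.0449). The control difference was -0.16 log2. Without any 1 set the call ended, at -1.34 to -1.46 log2. It was the 1 call among 12 tested genes of double-strand break repair, where 0.759% of all genes tested were lower, and 4 of the 12 were lower with the replicate block. The list's median difference was -0.49 log2 in irradiated and -0.01 log2 in control arrays. Ku80, which binds broken ends, read 118.4 and 58.1 in irradiated Dmp53NS and 217.8, 318 and 288.5 in irradiated WT. Its difference of -1.54 log2 missed the threshold (adjusted p = 0.0836) and passed with the replicate block (adjusted p = 0.0151). Much of it was there without radiation, with a control difference of -0.986 log2.

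Lower too were 2 genes of iron-sulphur cluster assembly. IscU (151804_at), the scaffold on which the clusters are built, read 337 and 458.3 in irradiated Dmp53NS, against 2132.5, 1463.3 and 2412.8 in irradiated WT. The difference was -2.28 log2 (SE 0.41, adjusted p = 0.0258), and its control difference of -0.57 log2 did not pass. Nfs1, the cysteine desulphurase that supplies the sulphur, had 532.7 and 388.2 in irradiated Dmp53NS and 1255.4, 1127.4 and 1208.4 in irradiated WT. Its difference was -1.37 log2 (adjusted p = 0.0449), with a control difference of -0.75 log2, and so fell in the class shared in sign. Both calls ended without yw (IscU adjusted p = 0.0729, Nfs1 0.164), without the second irradiated w1118 array (0.0781 and 0.112) and without either Dmp53NS set. They were 2 of the 8 tested genes of iron-sulphur assembly and copper chaperones, beside 0.759% of all genes lower, and the count was 3 with the replicate block. The list's median was -0.83 log2 in irradiated and -0.52 log2 in control arrays. Cox17, a copper chaperone, had -1.52 log2 (adjusted p = 0.0730, and 0.00296 with the replicate block), beside a control difference of -0.866 log2.

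The 1 probe set called by the difference of irradiation effects was 141483_at, which has no single gene symbol here. It read 11.4 and 13.2 in irradiated Dmp53NS, against 1737.6, 1323.6 and 898 in irradiated WT. Control arrays were far lower than irradiated WT arrays in both genotypes, at 17.7 and 22.5 in Dmp53NS and 19.9, 106.4 and 43.6 in WT. The irradiated difference was -5.58 log2 (SE 0.52, adjusted p = 0.00402), and the difference between irradiation effects was -4.73 log2 (adjusted p = 0.00135). Also without a single symbol, and named after their values were seen, were 143680_at (-2.41 log2 between irradiation effects, adjusted p = 0.0555) and 143411_at (-1.92 log2, adjusted p = 0.112). Neither passed, and Corp (adjusted p = 0.0836) ranked between them. 143680_at read 255.2 and 140.8 in irradiated Dmp53NS and 1851.1, 1514.8 and 1233.5 in irradiated WT. 143411_at read 208.2 and 247.5 in irradiated Dmp53NS and 677, 1155 and 1035.4 in irradiated WT, so the genotypes did not overlap for either.

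**Figure D2:**
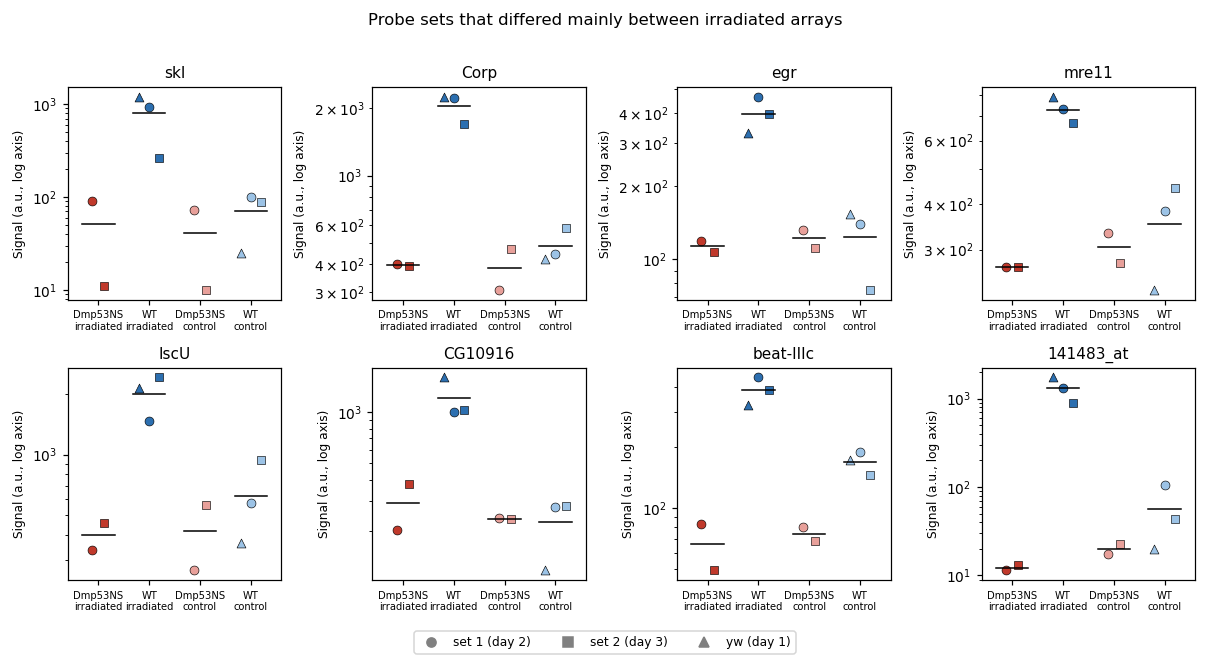
Signal per array (log axis, arbitrary units) of 8 probe sets that differed mainly between irradiated arrays, with Dmp53NS left of WT. Each point is 1 array, its shape gives the set and hybridization day, and the bar is the group mean. For each of the 8, both irradiated Dmp53NS arrays lie below the 3 irradiated WT arrays, as with 401.6 and 391.8 against 1696.5 to 2249.2 for Corp.

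The class held 5 without the yw set, 7 without the second irradiated w1118 array and 0 without the second Dmp53NS set. Among its other genes, CG10916 read 200.9 and 377.4 in irradiated Dmp53NS, against 1603.6, 1003.4 and 1025.4 in irradiated WT, a difference of -2.04 log2 (adjusted p = 0.0445) where the control difference was 0.16 log2. The gene beat-IIIc, of the Beaten path family of cell surface and secreted immunoglobulin proteins, had 83.4 and 48.9 in irradiated Dmp53NS and 322.8, 444.4 and 386.1 in irradiated WT (-2.33 log2, adjusted p = 0.0122). Its control difference was already -1.05 log2, without passing. CG12194 read 321.3 and 309.3 in irradiated Dmp53NS and 769.7, 915.3 and 805.3 in irradiated WT, with an opposite order between controls, where Dmp53NS read 248.3 and 246 and WT 173.8, 121.6 and 179. Lower too were ImpL2, which encodes a secreted binding protein of insulin-like peptides, the chorion gene Cp36 (-1.67 log2), Frmd5 (-1.87 log2, and -1.15 log2 without the first Dmp53NS set), CG18304 (-1.87 log2), and Tep4, CG15480, Ect3, CG2909 and nAChRbeta2. The last 5, ImpL2 and CG12194 were named after their values were seen. TORIP, which encodes a torsin-interacting protein, was the 1 member that was higher, at 216.6 and 461.4 in irradiated Dmp53NS and 20.3, 117 and 166.3 in irradiated WT. Its difference was 1.82 log2 (adjusted p = 0.0458), and 1.10 log2 without the yw set.

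Of 12 genes on a list of known p53 radiation targets, 9 were on the array and 8 were tested. Among the 8, 4 were lower (skl, Corp, egr and mre11) and 0 higher, where 0.759% of all genes tested were lower. The list was drawn up with results of these arrays known, so it is no independent evidence of direction. Its median difference was -1.47 log2 in irradiated and -0.35 log2 in control arrays, against -0.107 and -0.175 log2 over all genes. The summed signal of the 8 was 2214 and 1886 in irradiated Dmp53NS, against 5878, 6794 and 6120 in irradiated WT. The count was 7 with the replicate block, 2 without the second irradiated w1118 array, and 1 without the yw set, while the median stayed at -1.52 log2 without that array and -1.55 log2 without yw. Dark, the fly Apaf-1, which assembles the apoptosome, read 154.7 and 126.3 in irradiated Dmp53NS and 249.9, 406.3 and 388.2 in irradiated WT. Its difference was -1.20 log2 (adjusted p = 0.0832, and 0.0134 with the replicate block), beside -0.745 log2 in control arrays. RnrL, the large subunit of ribonucleotide reductase, had 945.2 and 826.7 in irradiated Dmp53NS and 704.1, 1525 and 2216.2 in irradiated WT, groups that overlapped through the yw array (-0.59 log2, adjusted p = 0.256, and 0.00733 with the replicate block). Irbp (Ku70) had -0.65 log2 (adjusted p = 0.290). The reaper-region gene grim was too dim to be tested, at 20.5 and 41.9 in irradiated Dmp53NS and 123.1, 41.2 and 67 in irradiated WT.

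The other tested genes on the lists of apoptosis effectors and inhibitors did not pass in the fit without the block. The list of apoptosis effectors held 16 genes, of which 12 were on the array and 8 were tested. The 3 called lower were again skl, egr and Corp, which stood on the list although its product restrains p53. The caspase genes Dronc (1.55 log2, adjusted p = 0.113, and 0.0168 with the replicate block), Dredd (-0.33 log2) and Dcp-1 (-0.02 log2) missed the threshold, as did each of the 3 tested apoptosis inhibitors. The Polycomb group gene escl read 472.8 and 680.7 in irradiated Dmp53NS, against 1983.1, 965.1 and 1568.6 in irradiated WT (-1.32 log2, adjusted p = 0.0673, and 0.00457 with the replicate block). The p53 probe set itself (150416_at) read 212.5 and 103.6 in irradiated Dmp53NS and 505.4, 498.6 and 260.8 in irradiated WT. Its difference of -1.35 log2 missed the threshold (adjusted p = 0.0945) and passed with the replicate block (adjusted p = 0.0159). The control difference was -0.654 log2. Where this probe set lies relative to the mutation was not stated in the labels, so it does not check the genotype labels.

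Of the 15 largest named rises in irradiated mutants, most had passed between control arrays too. In order of size they began with corolla (4.18 log2), CG31674 (3.65), CG7730 (3.54), smg (3.38), CG3618 (3.37), tor (3.23), Hsc70-2 (3.18), Crag (3.10), CG13375 (3.09) and dob (3.07), followed by TMEM216, bcd, BigH1, Drep2 and Fur2, and several of these genes have no described function here. The gene corolla (153837_at), which encodes a protein of the synaptonemal complex that pairs meiotic chromosomes, had signals of 504.4 and 967.5 in irradiated Dmp53NS, against 23.1, 35.4 and 17.6 in irradiated WT. WT arrays were near background, and the difference was 4.18 log2 (SE 0.56, adjusted p = 0.0120), beside 4.17 log2 in control arrays. The anterior determinant gene bcd (bicoid) had 753.2 and 1382.2 in irradiated Dmp53NS and 62.2, 187.4 and 128.3 in irradiated WT (2.99 log2, adjusted p = 0.0120, control 3.303 log2). The gene tor (torso), a receptor of the terminal system, had 406.2 and 481.4 in irradiated Dmp53NS and 19.6, 106.1 and 13.5 in irradiated WT (3.23 log2, adjusted p = 0.0285, control 4.02 log2).

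CG31674, the second largest, read 202.5 and 477.1 in irradiated Dmp53NS and 4.1, 21.1 and 11.7 in irradiated WT, with a control difference of 3.302 log2. Other called genes of that class included twe (twine, 2.74 log2), the Cdc25 phosphatase of meiosis, swa (swallow, 2.22 log2), which helps to place bcd RNA, and BigH1 (2.98 log2), the linker histone of the early embryo. The gene smg (smaug), whose product directs the clearance of maternal RNA, read 3683.5 and 2226 in irradiated Dmp53NS and 125.2, 931.4 and 143.8 in irradiated WT. It passed at 3.38 log2 (adjusted p = 0.0429), and its control difference of 2.88 log2 just missed (adjusted p = 0.0535). Of 26 tested genes on the list of maternal transcripts 4 were higher (bcd, tor, swa and smg) and 0 lower, where 1.94% of all genes were higher. The list median was 0.73 log2 in irradiated and 1.04 log2 in control arrays. The count was 10 with the replicate block, 1 without the second irradiated w1118 array and 0 without the yw set, with list medians of 0.75, 0.69 and 0.75 log2 in that order.

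The summed signal of those 26 maternal genes was 17953 and 19506 in irradiated Dmp53NS, against 8209, 11508 and 10777 in irradiated WT. Without radiation it was 26225 and 15785 in Dmp53NS and 7576, 9955 and 8600 in WT. The median difference over all genes was -0.107 log2, and 0.759% of genes were lower. Beside that, proneural and neuroblast genes had a median of -0.45 log2 with 0 of 27 called, mesoderm and muscle genes -0.53 log2 with 0 of 11, hemocyte genes -0.50 log2 with 0 of 9, cellular blastoderm genes -0.32 log2 with 0 of 23, and segment polarity and Hox genes -0.34 log2 with 0 of 11. Endoderm and yolk genes had -0.20 log2 with 0 of 8, and genes of trachea, salivary gland and epidermis -0.06 log2 with 0 of 9. These medians were negative without radiation too, at -0.615 log2 (proneural and neuroblast), -0.743 (mesoderm and muscle), -0.67 (hemocyte) and -0.474 (blastoderm). Control medians were -0.221 (segment polarity and Hox), -0.6 (endoderm and yolk) and -0.502 log2 (trachea, salivary gland and epidermis), against -0.175 log2 over all genes. Lists of other tissues with a lower member were amnioserosa (egr, 1 of 15) and adult ovary, chorion and testis (Cp36, 1 of 8). Late differentiation (Obp99a, 1 of 4) and germ line (zpg, 1 of 12) were the others. Their medians were -0.479, -0.372, -0.17 and 0.345 log2 in that order, and -0.607, -0.372, -0.5 and 0.712 log2 in control arrays. In the germ line list 7 of 12 differences were positive, and zpg went the other way. With the replicate block 9 of the 27 proneural and neuroblast genes were lower, 3 of the 23 of the blastoderm (and 1 higher), 2 of the 11 of mesoderm, 2 of the 15 of the amnioserosa and 1 each of the hemocyte and segment polarity lists. The block also called 1 higher of endoderm and yolk, and 2 higher and 1 lower of the germ line. The part of embryo age or tissue makeup in the other differences was not tested.

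**Figure D3:**
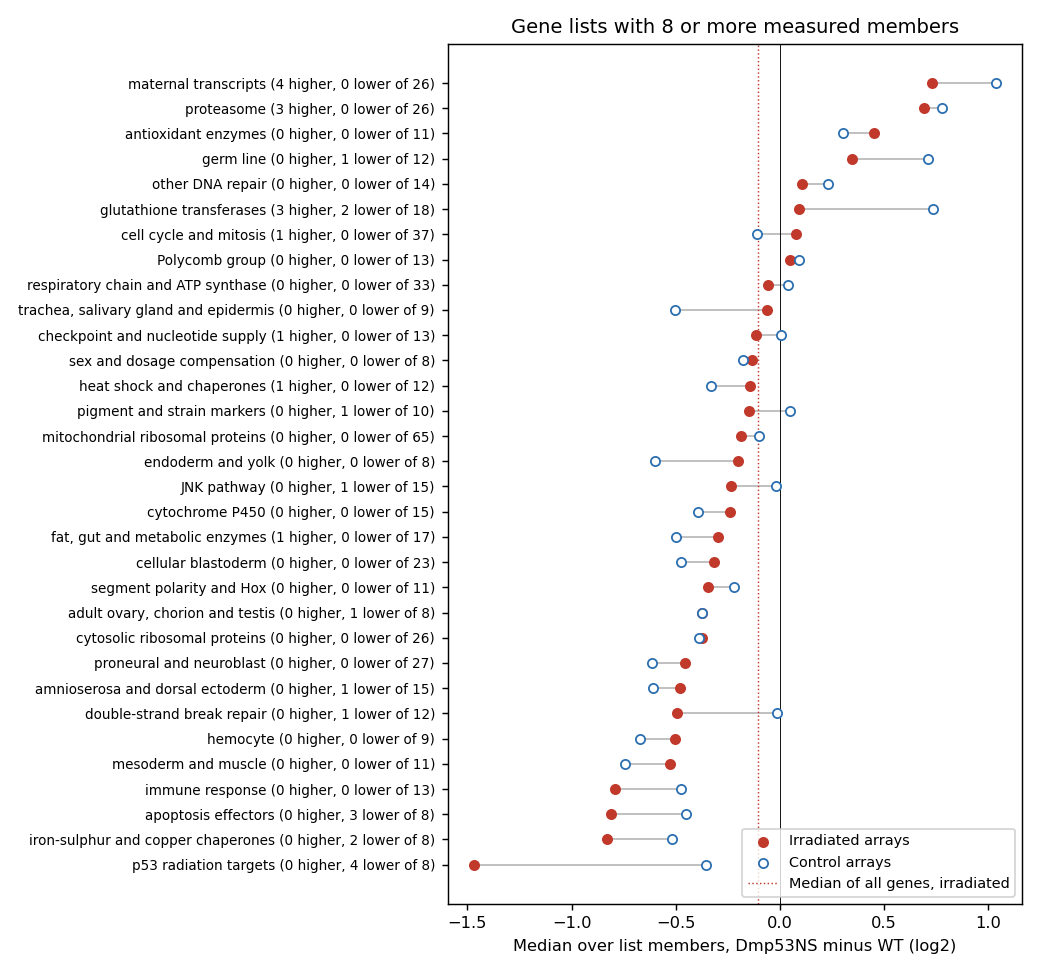
Median difference between Dmp53NS and WT (log2) over the measured members of each gene list with at least 8 of them, in irradiated arrays (filled) and control arrays (open). Counts of members called higher and lower in irradiated arrays stand beside each name. The p53 radiation targets lie lowest, at -1.47 log2 against -0.35 log2 in control arrays, and maternal transcripts highest.

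The proteasome, the protease complex that degrades ubiquitinated proteins, had 3 subunits that were higher, all in its core. Prosbeta6 (142705_at) read 3648.5 and 4202.1 in irradiated Dmp53NS and 1496.5, 1623.2 and 1760.9 in irradiated WT, a difference of 1.26 log2 (SE 0.20, adjusted p = 0.0176). Another probe set of the same gene, 141999_at, had -0.66 log2 and did not pass. Prosbeta3 (1.61 log2) and Prosalpha5 (1.60 log2) were the others, of 26 subunits tested, where 1.94% of all genes were higher. Between control arrays 6 of the 26 were called higher, beside 215 of all 6848 genes tested. Divided after the values were seen, the 12 subunits of the 20S core all had a positive difference (0.69 to 1.61 log2), whereas 10 of 14 of the regulatory particle were negative, with a median of -0.27 log2. The count of 3 was 13 higher and 1 lower with the replicate block, 1 without the second irradiated w1118 array and 0 without yw.

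Glutathione transferases, which conjugate toxins to glutathione, had calls in both directions. GstE1 read 878.3 and 2567.5 in irradiated Dmp53NS and 236.1, 310.2 and 404 in irradiated WT (2.23 log2, adjusted p = 0.0229), and the spread between the mutant arrays was wide. Without the second Dmp53NS set its difference was 1.46 log2. GstS1 (1.67 log2) and GstO2 (1.05 log2) were higher too, though 142740_at (1.37 log2) and 151668_r_at (0.46 log2) of GstO2 did not pass. GstD5 had 42.7 and 64 in irradiated Dmp53NS and 514.7, 259.6 and 373.2 in irradiated WT (-2.51 log2, adjusted p = 0.0219), and GstD1 was also lower (-1.43 log2). Of the 18 tested, 3 were thus higher and 2 lower, beside 1.94% and 0.759% of all genes, with 6 and 2 under the replicate block and 0 and 0 without yw or without the second irradiated w1118 array. The list median was 0.089 log2 in irradiated and 0.732 log2 in control arrays. GstE1 (2.205 log2), GstS1 (1.311) and GstD5 (-1.784) were called in control arrays too, while GstO2 (0.918) and GstD1 (-0.906) did not pass there. Mdh1, the cytosolic malate dehydrogenase, was higher by 1.71 log2 (control 1.86), and the chaperone gene Hsc70-2 by 3.18 log2 (control 2.9). Both passed in control arrays as well.

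Falls that were already there included 2 genes with little signal in the mutant strain. The gene ry (rosy), which encodes xanthine dehydrogenase and sets eye colour, read 10.6 and 2 in irradiated Dmp53NS, against 169, 97.8 and 106.7 in irradiated WT. Control arrays read 2.8 and 4.5 in Dmp53NS and 87.4, 78.5 and 137.6 in WT, so the pattern was the same without radiation (-2.73 log2, adjusted p = 0.0229). The gene zpg, a germ line gap junction protein, had 22.3 and 42.9 in irradiated Dmp53NS and 378.5, 261.7 and 223.4 in irradiated WT (-2.68 log2, adjusted p = 0.0120, control -2.41 log2). CG14715 (-2.52 log2), CG7878 (-2.49 log2), CG12885 (-2.17 log2), the cytochrome P450 gene Cyp6d5 (-2.15 log2) and the protease gene Try29F (-2.02 log2) were of the same class. A second probe set of CG14715, 142486_at, had -0.33 log2 and did not pass.

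**Figure D4:**
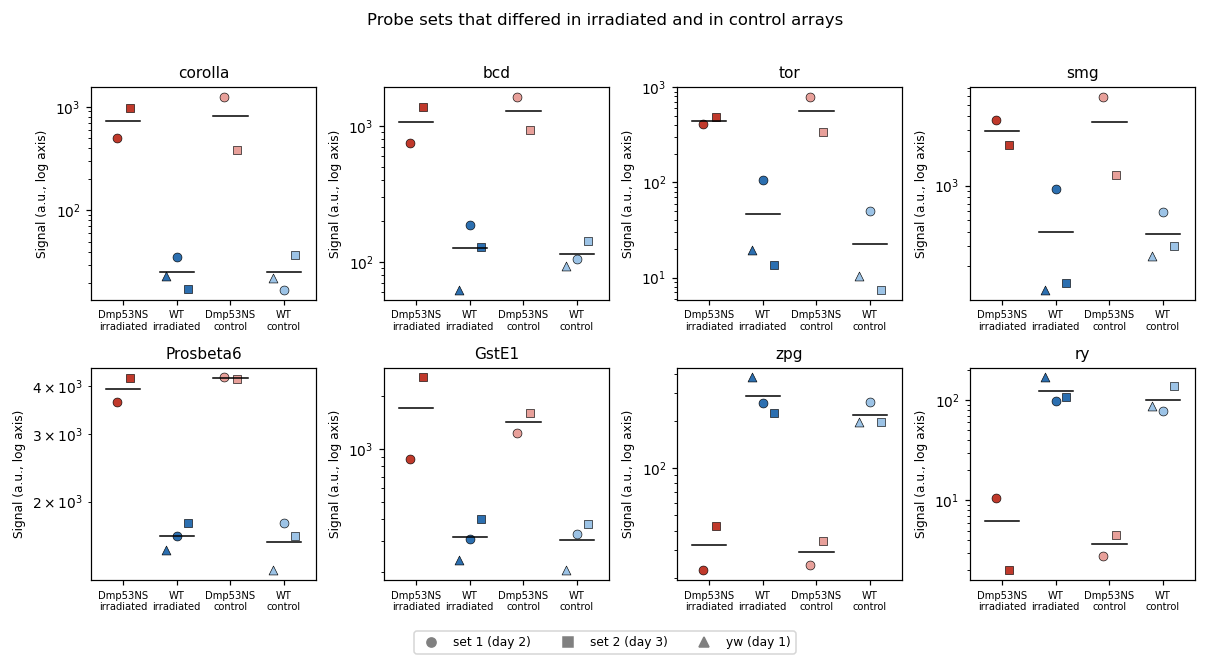
Signal per array (log axis, arbitrary units) of 8 probe sets that differed in irradiated and in control arrays, with Dmp53NS left of WT, drawn with 1 point an array and a bar at the group mean. Dmp53NS arrays lie above WT for the first 6 and below for zpg and ry, irradiated or not, as with ry at 10.6 and 2 against 97.8 to 169.

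The class shared in sign held further named genes. Rises included TMEM216 (3.01 log2, with 0.98 log2 and no call for its brighter probe set 142612_at), the furin protease gene Fur2 (2.91 log2), CG5026 (2.67 log2), CG7737 (2.48 log2), the RNA-binding gene qkr54B (2.26 log2), CG4586 (2.24 log2) and RhoGAP5A (2.21 log2). Falls included mey (-2.69 log2, with -0.53 log2 and no call for 142808_at), the P450 gene Cyp9f2 (-2.33 log2, with -0.89 log2 and no call for its brighter 149768_s_at), the zinc finger gene cbt (-2.05 log2), peg (-1.82 log2), CG8654 (-1.80 log2) and CG14545 (-1.61 log2). For 3 of the falls the yw array carried much of the difference. VhaM9.7-a read 176.2 and 170.4 in irradiated Dmp53NS and 1394.2 in yw beside 376.1 and 398.3 in w1118, and had -1.70 log2, and -1.10 log2 without yw. The gene gammaSnap1 had -1.68 log2, and -1.07 log2 without yw, and missed the threshold with the replicate block (adjusted p = 0.0861). Its brighter probe set 142296_at had -0.50 log2 and did not pass. The odorant-binding gene Obp99a, at 10895.9 and 9977.2 in irradiated Dmp53NS and 34465.4, 14791.8 and 18535.5 in irradiated WT, had -1.02 log2, and -0.67 log2 without yw.

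Of the 5 calls whose genotypes overlapped, named after their values were seen, 4 had the yw array on the mutant side or beyond it. Tektin-C read 5.9 and 2.8 in irradiated Dmp53NS and 4.6 in yw, beside 237 and 231.5 in w1118. Cyp4p2 read 538.9 and 656.2 in irradiated Dmp53NS and 1496.5 in yw, beside 17 and 64.1 in w1118. CG14275 and Spp had the same order, and 142119_at had 5502.5 in yw against 97.9 and 261.2 in w1118.

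The calls were spread over the chromosomes. Of the probe sets tested on the X 3.07% were called (32 higher and 8 lower), and on the arms of chromosomes 2 and 3 between 2.44% on 3R and 2.65% on 2L. Arm 3R held 20 of the falls beside 25 rises. Within hybridization days, where 1 Dmp53NS array meets 1 w1118 array, all 152 rises and 67 of the 68 falls had the same sign on both days. The calls were chosen on these same arrays, which largely fixes those signs.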

How the data were processed

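Total RNA of whole embryos was measured on single-colour Affymetrix arrays, 1 per collection. The deposited intensity values were made by the authors with MAS5 (version not given), per the submitters' processing notes; each array has the same trimmed mean (2% off each end), so the authors scaled them globally. The run records were used only for hybridization days. Probe sets with a mean signal above 53.36 (40th percentile) were kept, and log2(signal + 14.6), the 20th percentile, was analysed with limma 3.58.1 in R 4.3.3. The genotype differences were fitted to all 10 arrays with cell means, a centred yw term and the set as a random block (correlation 0.2, 5 residual degrees of freedom), and the difference of irradiation effects with the set as a fixed block (3 residual). Both used eBayes with a trend, two-sided tests, Benjamini-Hochberg adjustment over 8379 probe sets and a threshold of 0.05. The fits were tested on simulated data in which w1118 and Dmp53NS arrays of the same day shared no effect. That test therefore does not cover differences between days.

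Replicate numbers of w1118 and Dmp53NS coincide with hybridization days, per the run records, and deviations from the group means correlated at 0.563 (irradiated) and 0.585 (control) between arrays of the same number, so a fit with the number as a block is given where it changes a call. The series calls the arrays biological replicates. Platform annotation gave 12443 probe sets 1 symbol, 327 several and 1196 none, and 12394 gene identifiers matched the Release 6 gene table. For a gene with several probe sets the brightest stands for it in lists. Named genes were the 15 largest rises and falls that did not overlap between genotypes, the 8 largest in each direction of each class, called list members, probe sets called by the difference of effects, and a short set of radiation genes called or not. The members and lists were chosen with earlier results of these data known.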

Additional observations from a re-analysis of the deposited data

Results flagged for a closer look

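141483_at, which has no single gene symbol here, stood out because its irradiation effect differed between the genotypes in the test of that difference, by -4.73 log2 (limma adjusted p = 0.00135). Irradiated arrays read 11.4 and 13.2 in Dmp53NS, against 1737.6, 1323.6 and 898 in WT.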

How the results depend on the processing

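The irradiated comparison called 220 probe sets, the control comparison 327, the difference of irradiation effects 1, and the class found mainly in irradiated arrays held 22. For the irradiated comparison the count was 114 with no filter, 108 with no variance trend, 55 with no strain term, 1146 with the replicate block, 1458 with the replicate block and the set as a random block (added after seeing the data, correlation -0.567) and 1 from the irradiated arrays alone (1456 at an unadjusted p under 0.05). Leaving out 1 set gave 0 to 373, and leaving out only the second irradiated w1118 array, also added after seeing the data, gave 34. For the control comparison it was 217 with no variance trend, 72 with no strain term, 549 with strains weighted equally, 1198 with the replicate block, 1600 with both blocks, 51 from control arrays alone, and 0 to 371 without 1 set (0 without either Dmp53NS set, with 1109 and 2055 at an unadjusted p under 0.05). The difference of irradiation effects called 0 by limma under quantile normalization (286 unadjusted), no filter (459), no variance trend (292), no set block (110) and the set as a random block (169), 3 with the higher pseudocount, 7 with the stricter filter, 4 with the replicate block, and 0 to 7 without 1 set. The class held 11 with no filter, 10 with no variance trend, 6 with no strain term, 201 with the replicate block, 269 with both blocks, 1 from irradiated arrays alone, 7 without the second irradiated w1118 array, and 0 to 51 without 1 set. The causes were not tested.

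The 60 named genes called kept their sign under each alternative that tested them, which their choice on these arrays largely fixes. Of 37 list medians 10 turned sign under at least 1 of 3 added alternatives (7 with the replicate block, 6 without yw, 1 without the second irradiated w1118 array), all with medians between -0.37 and 0.45 log2. Polycomb group genes turned furthest, at 0.05 log2 against -0.52 log2 with the block. Of the 60, 59 also passed with the replicate block, 54 under quantile normalization, 26 with no strain term, 20 without the first and 0 without the second Dmp53NS set, 12 without yw and 15 without the second irradiated w1118 array. Frmd5 was -1.15 log2 without the first Dmp53NS set. Dim signals such as ry in the mutant lie near background, where MAS5 values are noisy.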
